A study of Homo sapiens with 6 samples.

Results

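The genes described here are the amino acid sensing arm of mTORC1, the kinase complex that couples nutrient supply to cell growth, together with the MiT/TFE transcription factors that it holds in the cytoplasm. The set is a list of symbols, chosen with earlier results of these data known, and holds 42 genes of the 61533 rows of the count table. They were measured by RNA-seq, after removal of ribosomal RNA, in MDA-MB-231, a human cell line of triple-negative breast cancer. The control group was 3 libraries of cells with an empty vector, whose genotype is labelled WT. The other group was 3 libraries of cells with shKDM2B, a short hairpin RNA against the histone demethylase KDM2B, labelled as a KDM2B knockdown. All 6 libraries came from the same line, grown in full medium with serum, nonessential amino acids and glutamine and harvested below confluence. The labels name no amino acid deprivation, and they do not state the hairpin sequence.

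In the textbook account, amino acids bring mTORC1 to the surface of the lysosome. Rag GTPases, which work as pairs of RagA or RagB with RagC or RagD, are anchored there by the Ragulator complex and recruit mTORC1, and RHEB switches the kinase on. GATOR1 turns the Rags off, GATOR2 restrains GATOR1, and the Sestrins and CASTOR proteins restrain GATOR2 until leucine or arginine is bound. The TSC complex turns RHEB off, and folliculin with its FNIP partners acts on RagC and RagD. The transcription factors TFEB, TFE3 and MITF are kept out of the nucleus when Rags and mTORC1 are active, and otherwise turn on genes of the lysosome and of autophagy.

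Library totals ran from 10190149 to 15737951 counts, so that 3 counts, the upper limit that a count of 0 allows, equalled 0.195 to 0.292 CPM (counts scaled to library size by TMM). KDM2B had 153 to 224 counts in the shKDM2B libraries and 589 to 902 in the empty vector libraries, which left 23.1% of its level. The labelled line was checked against its markers: VIM, CD44 and AXL together stood at 4510 to 4748 CPM in empty vector and 4163 to 4310 CPM in shKDM2B cells. Within that sum VIM fell 3.2-fold, from 1299 ± 52.3 to 406 ± 10.3 CPM (adjusted p 1.43e-12), and CD44 and AXL rose by 0.20 and 0.17 on the log2 scale. ESR1, PGR and CDH1 were below the low-count filter, and the 5 hormone receptor and luminal markers summed to 11 to 13.3 CPM in empty vector and 15.4 to 16.5 CPM in shKDM2B cells. No leukocyte or fibroblast marker exceeded 4 counts in any library, and no endothelial marker exceeded 8. In bulk RNA, a change in the share of cells that express a gene and a change in RNA per cell cannot be told apart.

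Of the 42 genes, 40 passed the low-count filter, and 30 of these differed between shKDM2B and empty vector cells at an adjusted p below 0.05 (edgeR quasi-likelihood test, Benjamini-Hochberg over all genes tested). The response was broad, with 60.9% of the 14071 genes tested called. The 40 genes divided into 19 higher, 11 lower and 10 not called, beside 30.5% of all genes called higher and 30.4% called lower. Their median log2 fold change was 0.21, beside -0.01 over all genes tested. In 31 of the 40 the groups did not overlap, 20 with shKDM2B above and 11 with it below, and 65.5% of all genes tested had groups that did not overlap. At least 2-fold changes were seen in 6 genes, which is 15% of the 40, beside 12.2% of all genes tested. The share called lower and the share changed at least 2-fold were thus close to those of all genes, and the share called higher was above it.

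The changes divided by role. All 4 Rag GTPases and all 3 genes of the folliculin complex were higher in shKDM2B cells, with median log2 fold changes of 0.75 and 0.74. No Ragulator gene was called lower and 3 of 5 were higher. Among the GATOR complexes no gene was called higher: 2 of 3 GATOR1 genes and 3 of 5 GATOR2 genes were lower. The kinase complexes and the sensors each held changes in both directions. The TSC genes and RHEB were all higher, and DDIT4, listed with them, was lower.

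**Figure D1:**
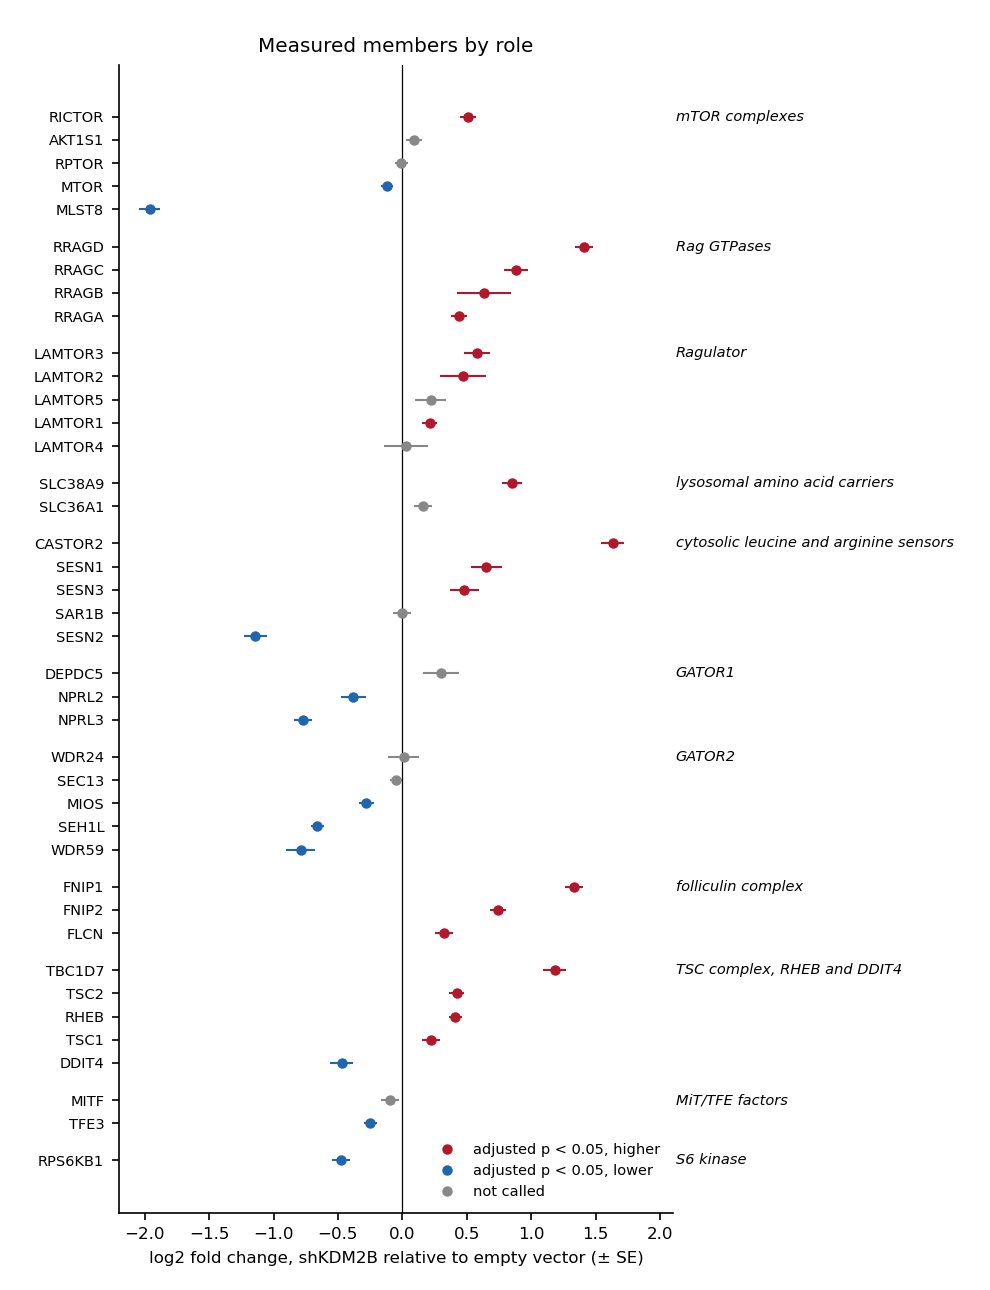
Log2 fold change of shKDM2B relative to empty vector for the 40 measured genes, ordered by role, with bars of 1 SE and colour for the call at an adjusted p below 0.05. The points run from MLST8 at -1.96 to CASTOR2 at 1.63, with every Rag and folliculin complex point to the right of 0.

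The 6 genes that changed at least 2-fold came from 5 of the 11 roles. MLST8, a subunit of the kinase complexes, and SESN2, a leucine sensor, fell. CASTOR2 of the arginine sensors, RRAGD of the Rags, FNIP1 of the folliculin complex and TBC1D7 of the TSC complex rose.

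**Figure D2:**
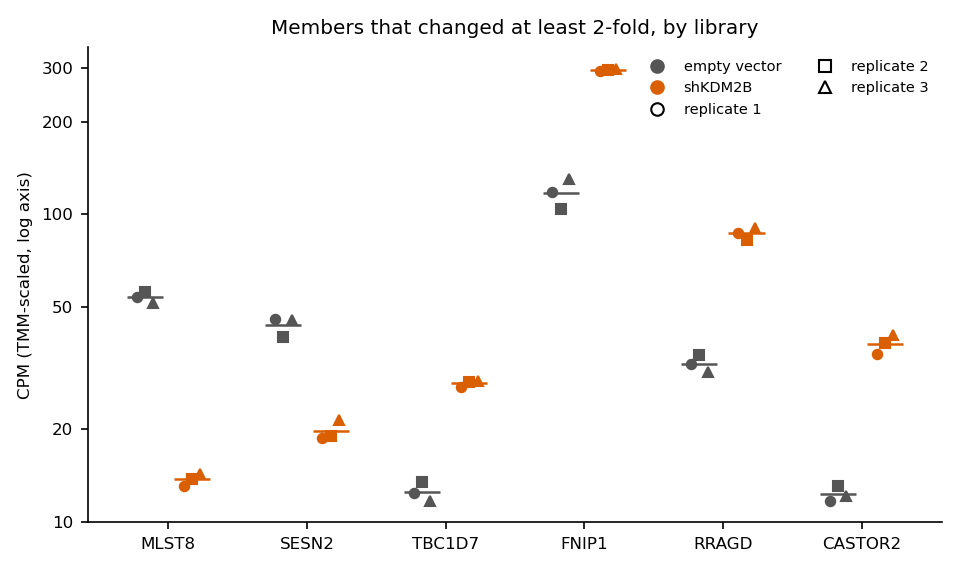
CPM on a log axis in each of the 6 libraries for the genes that changed at least 2-fold, with a horizontal line at the mean of each group and a symbol for each replicate. In all 6 genes the 3 shKDM2B libraries lie on 1 side of the 3 empty vector libraries.

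The promoters of the module were searched because MiT/TFE factors bind the E-box CACGTG, most tightly within the longer CLEAR core TCACGTGA, which contains it. RefSeq windows of 300 bases, from 250 before to 50 after an annotated start, were found for 36 of the 42 genes (GRCh38.p14). MLST8, AKT1S1, RRAGA, RRAGD, CASTOR2 and WDR24 had no entry. An E-box on either strand lay in 8 of 52 windows of these genes, beside 7.26% of 35116 windows of all genes. In 7 of the 8 genes at least 1 E-box lay upstream of the start, and RRAGB had a further one just after it, outside the printed stretch. The upstream stretches are printed to show each E-box with its flanks. Of these 7 genes, 5 were called higher and 2, LAMTOR4 and SLC36A1, were not called. In the module 19 of 40 genes were called higher, and 30.5% of all genes tested. They lie at chrX:55717614-55717748 on the plus strand (RRAGB), chr1:38859859-38859904 on the minus strand (RRAGC), chr11:72103437-72103482 on the minus strand (LAMTOR1) and chr7:100148884-100148917 on the plus strand (LAMTOR4). The other 3 lie at chr5:151447540-151447602 on the plus strand (SLC36A1, at its second listed start), chr5:131797086-131797212 on the minus strand (FNIP1) and chr16:2047859-2047888 on the plus strand (TSC2). Capitals mark the E-box.
RRAGB: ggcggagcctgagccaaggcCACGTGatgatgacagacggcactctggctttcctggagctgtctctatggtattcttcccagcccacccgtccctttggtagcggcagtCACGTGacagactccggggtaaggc
RRAGC: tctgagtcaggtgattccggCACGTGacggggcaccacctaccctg
LAMTOR1: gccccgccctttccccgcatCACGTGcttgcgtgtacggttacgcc
LAMTOR4: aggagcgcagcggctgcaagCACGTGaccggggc
SLC36A1: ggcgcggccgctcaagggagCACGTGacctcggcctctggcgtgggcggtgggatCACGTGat
FNIP1: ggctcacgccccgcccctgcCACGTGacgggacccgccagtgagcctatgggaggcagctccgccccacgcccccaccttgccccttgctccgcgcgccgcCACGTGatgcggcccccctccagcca
TSC2: atgcggccccgtCACGTGatgcaaggatcg

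RRAGB, SLC36A1 and FNIP1 each hold a pair of E-boxes in these stretches. The first base of the box lies 115 and 25 bases before the start in RRAGB, 43 and 8 bases before it in SLC36A1, and 175 and 94 bases before it in FNIP1. The CLEAR core was found in RRAGB, SLC36A1 and TSC2, in 3 of 52 windows beside 0.98% of all windows. The eighth gene, NPRL3, has its single E-box after the start and was called lower. Grouped by call, an E-box was present in 5 of 16 genes called higher, 1 of 10 called lower and 2 of 8 not called. The related M-box TCATGTGA, which MITF also binds, lay in LAMTOR1 and, only at their second listed start, in LAMTOR3 and FNIP2. That is 3 of 52 windows, beside 1% of all windows. These genes were all called higher, as were 19 of the 40 genes tested in the module and 30.5% of all genes tested. The C/EBP-ATF element TGATGNAAN, read by ATF4, lay in TSC2 alone, where it overlaps the CLEAR core, beside 3.61% of all windows. The windows of these genes are rich in CpG, with a median of 27 CpG beside 14 over all windows, and CACGTG itself contains a CpG. A match describes letters in a window; no binding was measured.

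Among the subunits of the mTOR complexes, MLST8 fell and RICTOR rose, and the kinase itself differed by 1.09-fold. MLST8 encodes a small WD-repeat subunit shared by mTORC1 and mTORC2 (chromosome 16 from 2204248 to 2209416, plus strand, GRCh38). It stood at 53.9, 56.1 and 51.5 CPM in empty vector replicates 1 to 3 and at 13.1, 13.8 and 14.3 CPM in the shKDM2B replicates. The groups were far apart, and the level fell 3.89-fold, to 25.7% of the control (log2 difference -1.96 with SE 0.08, adjusted p 9.32e-11). RICTOR, the scaffold of mTORC2, had 95.8, 84.4 and 96.7 CPM in empty vector and 126, 132 and 137 CPM in shKDM2B cells. All 3 shKDM2B libraries lay above the controls, a 1.42-fold rise (log2 difference 0.51 with SE 0.06, adjusted p 5.93e-06).

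MTOR, the kinase, went from 147 ± 2.11 to 135 ± 3.26 CPM (SD, n = 3 each), which is 1.09-fold lower (log2 difference -0.12 with SE 0.05, edgeR adjusted p 0.0414). That call was lost with DESeq2 (adjusted p 0.0626), without the low-count filter (adjusted p 0.0648), and also in 5 of the 6 fits that leave out 1 library, all but the one without empty vector replicate 2. RPTOR, the mTORC1 scaffold that binds substrates, had a log2 fold change of -0.01 (95% interval -0.11 to 0.10). AKT1S1, which encodes the inhibitory subunit PRAS40, had one of 0.09 (95% interval -0.02 to 0.20). Neither was called, and the libraries of the groups overlapped in both. Within libraries, the log2 ratio of RPTOR to RICTOR went from 0.77 ± 0.08 to 0.25 ± 0.05, a change of -0.52, as RICTOR rose and RPTOR was not called. The groups did not overlap (two-sided exact permutation p 0.1, the smallest that 3 against 3 allows, 0.125 after adjustment over 10 pairs).

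All 4 Rag GTPases rose. RRAGD, which encodes RagD and is itself a known target of MiT/TFE factors, was at 32.5, 34.8 and 30.8 CPM in empty vector and at 87.1, 82.4 and 90.6 CPM in shKDM2B cells (chromosome 6 from 89364636 to 89412270, minus strand). Every shKDM2B library lay more than 2-fold above every control, and the rise was 2.66-fold (log2 difference 1.41 with SE 0.07, adjusted p 4.11e-10). RRAGC, its paralog and alternative partner of RagA and RagB, was at 23.7, 29.3 and 24 CPM in empty vector and at 50.3, 44.7 and 46.6 CPM in shKDM2B cells. It rose 1.84-fold, again with no overlap (log2 difference 0.88 with SE 0.09, adjusted p 1e-06). The log2 ratio of RRAGC to RRAGD went from -0.35 ± 0.10 to -0.88 ± 0.08, a shift toward RRAGD in all 3 shKDM2B libraries (exact permutation p 0.1, adjusted 0.125).

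RRAGA, which encodes the GTP-bound partner in active pairs, rose 1.36-fold from 58.2 ± 3.89 to 79.1 ± 4.63 CPM (log2 difference 0.44 with SE 0.06, adjusted p 3.83e-05). RRAGB, its paralog, was read at low depth, with 41, 26 and 44 counts in empty vector and 62, 46 and 76 in shKDM2B cells. In CPM these were 3.99, 2.48 and 3.19 against 6.03, 4.03 and 4.95, so the lowest shKDM2B library lay just above the highest control. The fitted rise was 1.55-fold (log2 difference 0.63 with SE 0.21, edgeR adjusted p 0.0179). The RRAGB call was lost with DESeq2 (adjusted p 0.0823) and without empty vector replicate 3, shKDM2B replicate 1 or shKDM2B replicate 3. The log2 ratio of RRAGA to RRAGB was 4.18 ± 0.43 in empty vector and 3.99 ± 0.29 in shKDM2B cells, and the groups overlapped (exact permutation p 0.5).

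Ragulator, the pentamer that holds the Rags on the lysosomal membrane, showed smaller rises in 3 of its 5 genes. LAMTOR3 was at 34.2, 27.7 and 37.2 CPM in empty vector and at 53.5, 49.9 and 45.9 CPM in shKDM2B cells. The groups did not overlap, and the rise was 1.49-fold (log2 difference 0.58 with SE 0.10, adjusted p 0.00014). LAMTOR1, the lipid-anchored subunit that tethers the others, rose 1.16-fold from 54.1 ± 0.904 to 62.7 ± 2.63 CPM (log2 difference 0.21 with SE 0.06, adjusted p 0.00629). LAMTOR2 was called higher at low depth, with 37, 64 and 67 counts against 66, 82 and 101, or 4.85 ± 1.25 and 6.72 ± 0.403 CPM (log2 difference 0.47 with SE 0.18, edgeR adjusted p 0.0325). That call was lost with DESeq2 (adjusted p 0.138) and without any 1 library other than empty vector replicate 2. LAMTOR5 had a log2 fold change of 0.22 (95% interval -0.01 to 0.45) and LAMTOR4 one of 0.03 (95% interval -0.30 to 0.35), with overlapping groups in both. LAMTOR4 is one of the genes with an E-box printed above.

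The lysosomal amino acid carriers report the contents of the lysosome to the Rags. SLC38A9, the arginine sensor that binds Ragulator, was at 19.9, 19 and 20.6 CPM in empty vector and at 36, 36.8 and 34.8 CPM in shKDM2B cells. The libraries of each group were tightly grouped, and the level rose 1.8-fold (log2 difference 0.85 with SE 0.08, adjusted p 3.4e-07). SLC36A1, a proton-coupled carrier of small amino acids, was at 48.5, 45.2 and 50.6 against 54.1, 51.2 and 55.7 CPM. The groups did not overlap, yet the difference was not called (log2 difference 0.16 with SE 0.07, edgeR adjusted p 0.0533). Without the robust step it was called (adjusted p 0.0482), and likewise without empty vector replicate 3 (adjusted p 0.0459).

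The cytosolic sensors changed in opposite directions. CASTOR2, a paralog and partner of the arginine sensor CASTOR1, was at 11.7, 13.1 and 12.1 CPM in empty vector and at 35.2, 38.2 and 40.6 CPM in shKDM2B cells (chromosome 7 from 74964818 to 75024798, plus strand). It showed the largest rise of the module, 3.1-fold, with no overlap (log2 difference 1.63 with SE 0.09, adjusted p 2.48e-09). The near-identical copy CASTOR3P had 5, 5 and 10 counts in empty vector and 16, 13 and 19 in shKDM2B cells, and reads of the copies may have been split in counting. CASTOR1 itself had 0 counts in every empty vector library and 2 in each shKDM2B library, at or below the limit of 3 counts, so no fold is given.

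SESN2, the stress-induced leucine sensor and a known ATF4 target, was at 45.6, 39.9 and 45.5 CPM in empty vector and at 18.7, 19 and 21.5 CPM in shKDM2B cells (chromosome 1 from 28259527 to 28282491, plus strand). It fell 2.21-fold with no overlap (log2 difference -1.14 with SE 0.09, adjusted p 5.43e-08). Its paralogs rose: SESN1, a p53 target, from 7.47 ± 0.654 to 11.6 ± 0.818 CPM (log2 difference 0.65 with SE 0.12, adjusted p 0.000374), and SESN3, a FOXO target, by 0.48 on the log2 scale (SE 0.11, adjusted p 0.00119). The log2 ratio of SESN2 to SESN3 was 0.61 ± 0.12 in empty vector and -1.02 ± 0.04 in shKDM2B cells. The log2 ratio of SESN1 to SESN2 went from -2.54 ± 0.19 to -0.76 ± 0.02, the largest shift of the 10 ratios, at 1.78. Neither ratio overlapped between groups (exact permutation p 0.1 each, adjusted 0.125). ATF4 fell 3.41-fold in the same libraries, from 460 ± 46.4 to 135 ± 2.4 CPM (adjusted p 4.55e-11), and its part in the SESN2 change was not tested. SAR1B, a small GTPase described as a further leucine sensor, differed by -0.0038 on the log2 scale (95% interval -0.14 to 0.13).

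**Figure D3:**
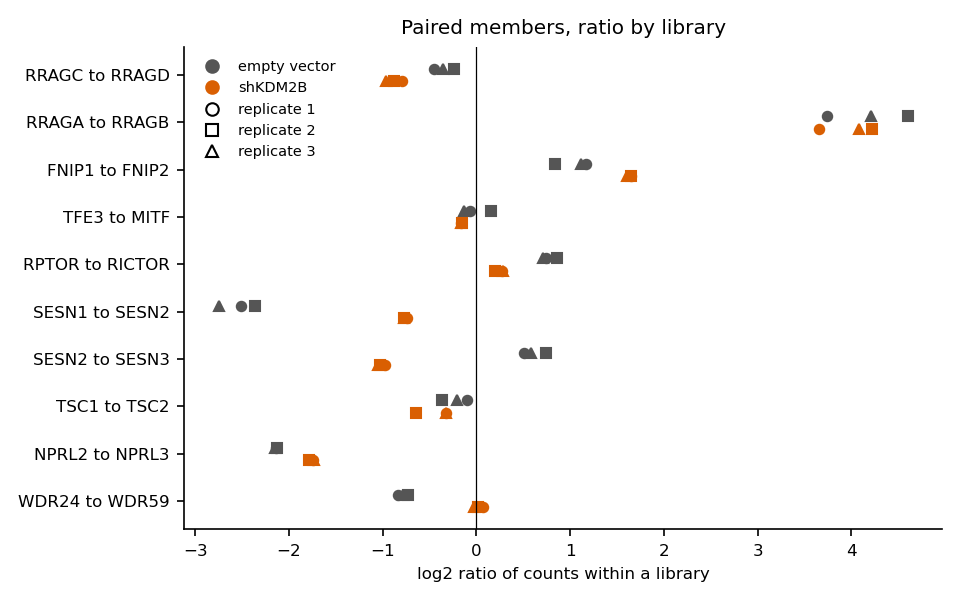
Log2 ratio of counts of paired genes within each library, with grey symbols for empty vector and orange for shKDM2B, and a symbol for each replicate. The ratios that involve SESN2 moved farthest, by 1.78 and -1.63, while those of RRAGA to RRAGB and TSC1 to TSC2 overlapped between groups.

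GATOR1, the GTPase-activating complex that switches RagA and RagB off, was lower in 2 of its 3 genes. NPRL3 was at 68.4, 69.1 and 63.7 CPM in empty vector and at 41.9, 37 and 39.3 CPM in shKDM2B cells. The groups were well separated, and the level fell 1.7-fold (log2 difference -0.77 with SE 0.07, adjusted p 2.09e-07). NPRL2, its heterodimer partner, fell 1.3-fold from 15.2 ± 0.77 to 11.7 ± 0.935 CPM (log2 difference -0.38 with SE 0.10, adjusted p 0.00623). DEPDC5, the subunit with the catalytic arginine finger, had a log2 fold change in the other direction that was not called (0.30, 95% interval 0.01 to 0.58, edgeR adjusted p 0.0895). Without empty vector replicate 3 it was called, at 0.44 (adjusted p 0.0283). The log2 ratio of NPRL2 to NPRL3 rose by 0.39, from -2.14 ± 0.01 to -1.75 ± 0.03 (exact permutation p 0.1, adjusted 0.125).

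GATOR2, which opposes GATOR1, was lower in 3 of its 5 genes. WDR59 was at 25.3, 28.4 and 21.4 CPM in empty vector and at 14.3, 14.1 and 14.6 CPM in shKDM2B cells, 1.74-fold lower with no overlap (log2 difference -0.79 with SE 0.11, adjusted p 1.99e-05). SEH1L, which also serves in the nuclear pore, fell 1.58-fold from 224 ± 2.28 to 142 ± 2.04 CPM (log2 difference -0.66 with SE 0.05, adjusted p 2.74e-08). MIOS fell 1.21-fold (log2 difference -0.28 with SE 0.06, adjusted p 0.00121). The 2 remaining subunits were not called: WDR24 differed by 0.01 (95% interval -0.22 to 0.24) and SEC13, shared with the nuclear pore and COPII coats, by -0.05 (95% interval -0.15 to 0.05). Within libraries, WDR24 relative to WDR59 went from a log2 ratio of -0.79 ± 0.05 to 0.02 ± 0.05 (exact permutation p 0.1, adjusted 0.125).

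All 3 genes of the folliculin complex, the GTPase-activating complex for RagC and RagD, rose. FNIP1 was at 118, 104 and 130 CPM in empty vector and at 293, 295 and 298 CPM in shKDM2B cells (chromosome 5 from 131641714 to 131797063, minus strand). Each shKDM2B library was more than 2-fold above each control, and the rise was 2.51-fold (log2 difference 1.33 with SE 0.07, adjusted p 9.89e-10). FNIP2 rose 1.67-fold from 56.8 ± 3.9 to 95.2 ± 2.28 CPM (log2 difference 0.74 with SE 0.06, adjusted p 9.76e-08). FLCN, the tumour suppressor gene of the complex, rose 1.25-fold from 52.9 ± 4.59 to 65.9 ± 2.26 CPM (log2 difference 0.32 with SE 0.07, adjusted p 0.000966). FNIP1 gained on FNIP2, with a log2 ratio of 1.04 ± 0.18 in empty vector and 1.63 ± 0.02 in shKDM2B cells (exact permutation p 0.1, adjusted 0.125).

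Genes of the TSC complex, which turns RHEB off, rose, and so did RHEB. TBC1D7, the third subunit, was at 12.4, 13.5 and 11.7 CPM in empty vector and at 27.5, 28.5 and 28.6 CPM in shKDM2B cells (chromosome 6 from 13266542 to 13328583, minus strand). It rose 2.26-fold with no overlap (log2 difference 1.18 with SE 0.09, adjusted p 5.84e-08). Its exons overlap those of PHACTR1 on the other strand, which had 258 to 372 counts in empty vector and 214 to 311 in shKDM2B cells. TSC2, the catalytic subunit, rose 1.34-fold from 63.4 ± 3.24 to 85 ± 4.9 CPM (log2 difference 0.42 with SE 0.06, adjusted p 3.41e-05).

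TSC1, the scaffold of that complex, rose 1.16-fold (log2 difference 0.22 with SE 0.07, edgeR adjusted p 0.0111), a call lost without shKDM2B replicate 1 or without shKDM2B replicate 3 (adjusted p 0.0644 and 0.065). RHEB rose 1.33-fold from 157 ± 5.34 to 209 ± 5.76 CPM (log2 difference 0.41 with SE 0.05, adjusted p 7.08e-06). Its processed pseudogene RHEBP2 had 213 to 286 counts in empty vector and 268 to 446 in shKDM2B cells, and reads of the 2 may have been exchanged. DDIT4, a stress-induced inhibitor of mTORC1 also known as REDD1, was at 58, 74.6 and 56.6 CPM in empty vector and at 46.8, 46.5 and 43.2 CPM in shKDM2B cells. It fell 1.39-fold with no overlap (log2 difference -0.47 with SE 0.09, adjusted p 0.000755). The windows of SESN2 and DDIT4 held none of the searched motifs.

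The MiT/TFE factors themselves changed little. TFE3 was at 71.4, 72.1 and 71.6 CPM in empty vector and at 57.8, 61.5 and 61.9 CPM in shKDM2B cells, 1.19-fold lower with no overlap (log2 difference -0.25 with SE 0.05, adjusted p 0.00121). MITF was at 72.6 ± 7 and 67.6 ± 2.39 CPM, with overlapping groups (log2 difference -0.10 with SE 0.07, edgeR adjusted p 0.209). Without empty vector replicate 2 it was called lower, at -0.19 (adjusted p 0.000928). TFEB, for which the targets are named, was close to the detection limit, with 9, 12 and 7 counts in empty vector and 8, 10 and 11 in shKDM2B cells, and was not tested. Per kilobase of exon, the empty vector level was 16.7 ± 0.0857 CPM for TFE3, 10.1 ± 0.974 for MITF and 0.149 ± 0.0565 for TFEB. RPS6KB1, the S6 kinase that mTORC1 phosphorylates, was at 72.7, 61.1 and 72.5 CPM in empty vector and at 49.6, 49.6 and 49.4 CPM in shKDM2B cells. It fell 1.39-fold with no overlap (log2 difference -0.48 with SE 0.07, adjusted p 4.16e-05).

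Levels per kilobase of exon placed 26 of the 40 measured genes at or above the median of all genes tested, 5.08 CPM per kilobase in empty vector cells. RHEB was highest at 44.5 ± 1.51, followed by RRAGA at 36.6 ± 2.45 and DDIT4 at 30.6 ± 4.86. The libraries of DDIT4 and RRAGA overlapped. With the longest transcript as length, RHEB remained first and SEC13 came second. DEPDC5 was lowest at 0.439 ± 0.0695. Among the Rags, RRAGA stood far above RRAGB at 1.18 ± 0.277, and RRAGD at 6.44 ± 0.395 above RRAGC at 4.97 ± 0.61. In shKDM2B cells these were 17.1 ± 0.815 for RRAGD and 9.14 ± 0.543 for RRAGC. The order of RRAGC and RRAGD in empty vector cells depends on the length used: with the longest transcript it was 9.41 for RRAGC and 6.67 for RRAGD. SESN2 had the highest level of the Sestrins in empty vector, 12.7 ± 0.948 beside 2.72 ± 0.412 for SESN3 and 1.46 ± 0.128 for SESN1. In shKDM2B cells SESN2 stood at 5.71 ± 0.446, SESN3 at 3.79 ± 0.376 and SESN1 at 2.27 ± 0.16, so the order was the same with smaller gaps.

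Around the module, 71 further pathway genes were followed, of which 67 were tested, 37 called higher and 15 lower, beside 30.5% of all genes called higher and 30.4% called lower. Of 16 subunits of the vacuolar ATPase, the proton pump that acidifies the lysosome and binds Ragulator, 13 were higher and 1 lower, and the median log2 difference was 0.52. ATP6AP1 rose 2.18-fold from 55.1 ± 3.35 to 120 ± 3.15 CPM (adjusted p 9.89e-10), ATP6V1B2 2.04-fold and ATP6V0B 1.97-fold, while ATP6V0A2 fell by 0.18 on the log2 scale. Of 18 TFEB targets of the lysosome and of autophagy, 15 were higher and 3 lower, and the median log2 difference was 1.01. CTSD, the protease cathepsin D, was at 52.5, 58 and 53.6 CPM in empty vector and at 282, 296 and 289 CPM in shKDM2B cells, a 5.29-fold rise (log2 difference 2.40 with SE 0.06, adjusted p 6.37e-13). SQSTM1, the autophagy receptor p62, was at 295, 404 and 322 against 1735, 1661 and 1786 CPM, a 5.07-fold rise (adjusted p 1.97e-06). PSAP, the saposin precursor, rose 2.84-fold (adjusted p 8.79e-07). The 3 that fell were GLA (-0.80), MCOLN1 (-0.31) and SGSH (-0.30), 2 lysosomal hydrolases and a lysosomal calcium channel. An E-box lay in 5 of 12 windows of 10 matched TFEB targets and in 3 of 13 windows of 11 matched vacuolar ATPase genes. The share over all windows was 7.26%. MiT/TFE factors bind this motif, so a list of TFEB targets may hold it by selection, and no conclusion is drawn.

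Downstream and growth factor genes were divided. Of 6 substrates of mTORC1, 3 rose and 3 fell. RPS6KB2, the second S6 kinase gene, was at 28.6, 29 and 28.5 CPM in empty vector and at 7.1, 8.84 and 6.06 CPM in shKDM2B cells, 3.95-fold lower with no overlap (log2 difference -1.98 with SE 0.12, adjusted p 4.8e-09). ULK1, the kinase that starts autophagy and is held back by mTORC1, rose 2.45-fold from 15.2 ± 1.02 to 37 ± 1.06 CPM (adjusted p 1.07e-08). EIF4EBP2, a repressor of translation initiation, rose 1.97-fold (adjusted p 5.09e-09). The other called substrates were GRB10 (0.46 on the log2 scale), EIF4EBP1 (-0.84) and LARP1 (-0.58). Of 12 tested genes of growth factor and energy signalling, 4 were lower. AKT2 fell 2.53-fold from 164 ± 8.79 to 64.7 ± 3.12 CPM (adjusted p 2.4e-10), AKT1 1.8-fold and PDPK1 1.73-fold. PIK3CA, which encodes a catalytic subunit of PI3K, fell by 0.22 on the log2 scale.

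The remaining lists were mixed. Of the 5 KICSTOR and SAMTOR genes, which anchor GATOR1 and sense methionine, BMT2 (SAMTOR) rose 1.75-fold (adjusted p 5.94e-05), and KICS2 fell by 0.45 on the log2 scale. RNF167 and RNF152, ubiquitin ligases of the pathway, rose by 0.77 and 0.22, and 2 of 3 such regulators were thus higher. For RNF152 the groups overlapped and the call was borderline (edgeR adjusted p 0.0496). Among 6 tested genes of mTORC2, DEPTOR and mTOR assembly, TTI1 (-0.59) and TELO2 (-0.31) fell and PRR5L (0.48) rose. RHEBL1, a RHEB paralog, rose by 0.83 (SE 0.23, adjusted p 0.00581), and TFEC and DDIT4L were below the filter.

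**Figure D4:**
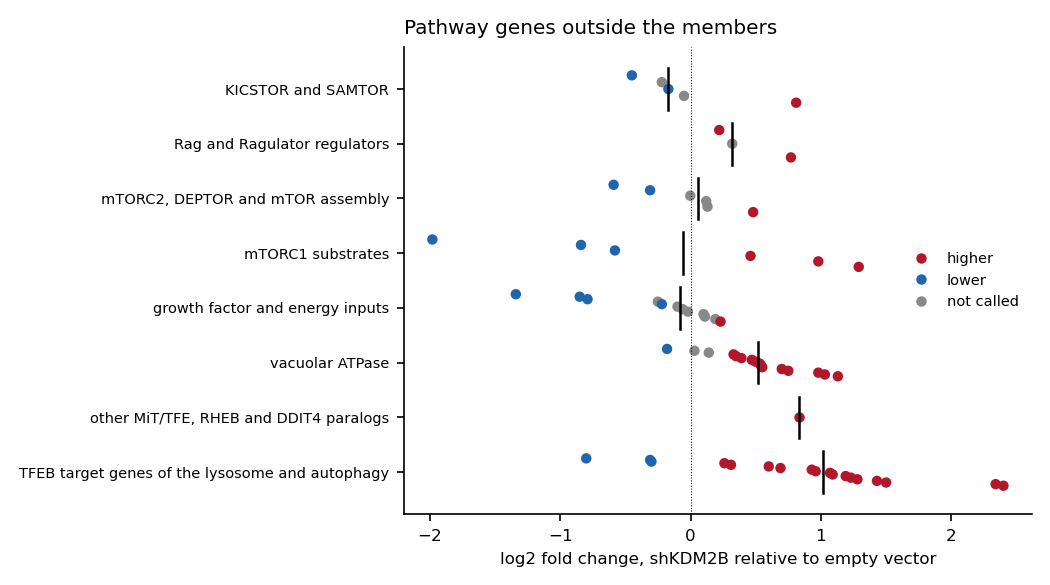
Log2 fold change of shKDM2B relative to empty vector for the 67 tested pathway genes outside the module, 1 row per list, with a vertical bar at each list's median and colour for the call. TFEB targets (median 1.01) and vacuolar ATPase genes (median 0.52) lie mostly to the right of 0, and mTORC1 substrates spread from -1.98 to 1.29.

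A short sequence word in 3′ UTRs was searched for after the data were seen, so its link with lower counts is not independent of them. CGACAC in the annotated 3′ UTR of the longest coding transcript marked 4.99% of 11941 tested genes with such a UTR, and their median log2 fold change was -0.24 beside 0.01 for the others. Genes with the word also had longer UTRs, with a median of 2950 bases beside 1323. In the module, 2 of 42 genes held it, MLST8, which fell most, and SLC36A1, which was not called. That share is close to the one over all tested genes. Of the 71 further pathway genes, AKT2, PDPK1, ATP6V0A2 and SGSH held it, again close to that share, and all of these were called lower. Over all tested genes with such a UTR, 50.3% of those with the word and 30.5% of the others were called lower. The part of the word in these changes was not tested.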

How the data were processed

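The authors deposited raw read counts per gene with Ensembl identifiers. Per the submitters' processing notes, the tools included STAR, featureCounts and Trim Galore, with limma, edgeR and DESeq2, on GRCh38 (also written hg38). For versions, annotation, strand setting and multiply mapped reads, nothing is stated in the sources used here. Exons of 21 of the 42 genes overlap a gene on the other strand, so some of their reads cannot be assigned with certainty. Columns were matched to samples by name. The knockdown columns carry a hairpin code and were taken as shKDM2B, the only hairpin group.

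Low counts were removed by filterByExpr (minimum count 10, minimum total 15). TMM scaling was used, and the groups were compared with edgeR 4.0.16 (R 4.3.3, quasi-likelihood, robust, two-sided), with Benjamini-Hochberg adjustment over 14071 genes and a threshold of 0.05. The SE of a log2 difference (log2 fold change) is its size over the root of F. Log2 ratios of 10 gene pairs were compared by exact permutation (scipy 1.17.1); 2 pairs with a gene below the filter were not run. Lengths are unions of GENCODE 29 exons. The labels call the replicates biological without naming separate cultures, so the p-values reflect the spread between libraries alone, and that spread may be technical. Chi-square over degrees of freedom between replicates was 2 to 10.2, so none was a copy. The scripts were tested on simulated counts.

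Every gene of the module is named. Library values and full statistics are given for up to 3 called genes per role with the largest change and for those past 2-fold, and of the other pathway genes up to 3 called per list are named, with any that fell in lists that mostly rose. Some genes of these lists are not reported here. The genes, lists and tests were chosen with earlier results of these data known, and the promoter and UTR searches were added after the data were seen. Alternatives were DESeq2 size factors, upper-quartile scaling, no filter, 1 CPM in 3 libraries, DESeq2 1.42.0, limma-voom (3.58.1), no robust step, a replicate block, a 1.2-fold test and leaving out each library.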

Additional observations from a re-analysis of the deposited data

How the results depend on the processing

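Over 15 alternatives, 21 of the 30 called genes of the module kept their call in all of them. The number of all genes called was 5458 against a 1.2-fold change, where 8571 were called in the edgeR test, and 7566 to 9128 with 1 library left out. Against a 1.2-fold change, the module's 11 genes called lower became 7, without MTOR, NPRL2, MIOS and TFE3, and its 19 called higher became 14, without RRAGB, LAMTOR1, LAMTOR2, FLCN and TSC1. With 1 library left out, 16 to 19 genes of the module were called higher, and the median log2 fold change was 0.17 to 0.22. Directions turned only among genes near 0 that were not called. With 1 library left out, RPTOR ran from -0.05 to 0.02, LAMTOR4 from -0.10 to 0.15, SAR1B from -0.06 to 0.06 and WDR24 from -0.11 to 0.13. WDR24 was also -0.0035 with upper-quartile scaling, -0.02 without a filter and -0.01 with DESeq2. The log2 ratio of RRAGA to RRAGB changed by -0.42 to 0.01 with 1 library left out. The causes were not tested. With the replicate number as a block, 8479 genes were called in all, and 19 of the module were higher and 10 lower, MTOR being lost (adjusted p 0.0546). The correlations of same-numbered deviations were 0.118, -0.0258 and 0.0751, so the counts show no sign of pairing by number. They cannot tell whether same-numbered libraries were handled together. With the longest transcript as length, 28 of 40 genes lay at or above the median level. RRAGB, LAMTOR2, CASTOR1 and TFEB are limited by depth.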
